A study of Rattus norvegicus with 2 samples.

Results

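The regions described here are the H3K4me3 peaks of C6 rat glioma cells that lay in crowded stretches of the genome, outside the crowded chromosomes 10 and 12. C6 is an established cell line, grown here in medium with serum, fixed with formaldehyde and sonicated, and the labels name no treatment. It gave 1 immunoprecipitated library (anti-H3K4me3 antibody) and 1 input library (no antibody). The authors' peak list held 30172 peaks on build rn4. Each chromosome was divided into 1 Mb windows from position 0, and each peak was given to the window of its start. Windows with 50 or more peaks on chromosomes 1 to 20, except 10 and 12, were called dense. There were 51 of them among the 1960 windows of these chromosomes that held a peak (2.60%). They contained 3153 peaks, which is 10.4% of the whole list and 12.2% of the 25846 peaks on the same chromosomes. The members were therefore chosen by the number of peaks per window, and that number is a description and not a finding.

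H3K4me3 is the trimethylated form of lysine 4 on histone H3. It is laid down by methyltransferase complexes of the SET1 and MLL families, which are drawn to promoters rich in unmethylated CpG, and it is found mainly around the start sites of active and poised genes. Mammalian genes are spread unevenly along chromosomes, in gene-rich and gene-poor stretches, so a promoter mark can be crowded in some stretches and rare in others. No gene, promoter or base composition was set against these windows, because the gene and promoter tables at hand are on the assembly GRCr8 and positions were not converted. Windows and peaks are named by rn4 position, with starts counted from 1.

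There was 1 library and no replicate, so the values below describe this peak list, and no test between windows was made. Peak width and score come from the same peak calling as the peak number that chose the windows. Intervals are 95% intervals for counting error only (Clopper-Pearson for shares, binomial order statistics for medians). Neighbouring peaks are not independent, so a second library could well fall outside them. The number of reads behind a peak is unknown. The score is the authors' value for each peak. It was read from its values as the peak's p-value on a negative log10 scale, multiplied by 10, and 50 was the lowest in the list. As the comparison, 826 sparse windows with 5 to 15 peaks on the same chromosomes were used. They held 7722 peaks.

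Dense windows were found on 13 of the 18 chromosomes considered, and 22 of the 51 lay on chromosomes 1 and 7 (43.1%). Chromosome 1 had 12 dense windows with 717 peaks, and chromosome 7 had 10 with 680 peaks. Chromosomes 5, 19 and 20 had 5 each, chromosome 3 had 4, and chromosomes 2, 8 and 16 had 2 each. Chromosomes 9, 13, 14 and 17 had 1 each. In relation to the windows that held a peak, chromosome 20 was the fullest, with 10.2% of its windows dense, followed by chromosome 19 with 9.62% and chromosome 7 with 8.40%. Chromosome 1 had 5.36% and chromosome 2 had 0.971%. On chromosomes 7, 20 and 19 the dense windows held 33.2%, 33.0% and 31.9% of all peaks of the chromosome. No window of chromosomes 4, 6, 11, 15 and 18 reached 50 peaks. The fullest windows there held 43, 47, 42, 46 and 42 peaks.

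**Figure D1:**
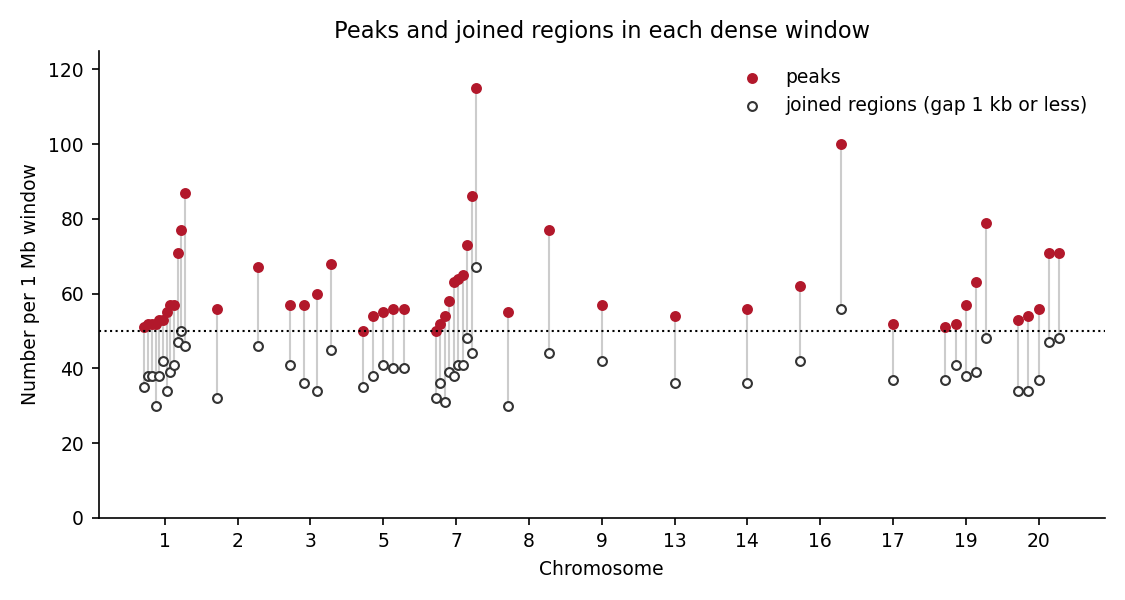
Peaks (filled points) and joined regions (open points) in each of the 51 dense windows, by chromosome. The vertical axis is the number per 1 Mb window, the grey line ties the values of 1 window, and the dotted line marks the 50 peaks that define the set. The fullest window, on chromosome 7, had 115 peaks in 67 joined regions.

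Peak number was uneven among the dense windows themselves. The median window held 57 peaks, with quartiles of 53.5 and 66. From 50 to 59 peaks were found in 32 windows, from 60 to 79 in 15 and 80 or more in 4. These 4 were chromosome 7 from 10 to 11 Mb (115 peaks), chromosome 16 from 19 to 20 Mb (100), chromosome 1 from 208 to 209 Mb (87) and chromosome 7 from 11 to 12 Mb (86). The next in order were chromosome 19 from 25 to 26 Mb with 79 peaks, chromosome 1 from 95 to 96 Mb and chromosome 8 from 47 to 48 Mb with 77 each, and chromosome 7 from 114 to 115 Mb with 73. Chromosome 20 from 3 to 4 Mb and from 5 to 6 Mb closed the first 10, with 71 peaks each. Chromosome 1 from 78 to 79 Mb also held 71 peaks and came after them by its smaller covered length.

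The threshold of 50 peaks fell inside a continuous range. The 10 windows just inside it, with 50 to 52 peaks, had a median peak width of 1041.5 bp, a median score of 213 and a median of 7.41% of bases covered (range 5.77 to 9.17%). The 10 windows just outside it, with 47 to 49 peaks, had a median width of 1078.5 bp, a median score of 187 and 7.20% of bases covered (range 5.94 to 8.08%). The closest window left out was chromosome 3 from 158 to 159 Mb with 49 peaks, and the least filled members were chromosome 5 from 148 to 149 Mb and chromosome 7 from 67 to 68 Mb, with 50 each.

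Of the 51 dense windows, 28 had no dense window directly beside them. This depends on the cut at 50 peaks, and some of the 28 had a dense window 2 windows away. The 51 windows formed 37 runs of adjacent windows, of which 28 were a single window, 6 were 2 windows long, 2 were 3 windows long and 1 was 5 windows long. Single windows held 51.8% of the member peaks. The longest run was on chromosome 20 from 3 to 8 Mb. It held 305 peaks in 200 joined regions, and its windows held 71, 54, 71, 56 and 53 peaks in order. The run on chromosome 7 from 9 to 12 Mb was shorter but fuller, with 265 peaks in 152 joined regions and 12.8% of its bases covered, against 8.25% in the chromosome 20 run. Its windows held 64, 115 and 86 peaks. The third run of this kind, on chromosome 1 from 78 to 81 Mb, held 178 peaks in 119 joined regions and had 8.33% of its bases covered. Median scores were 197 in the chromosome 20 run, 260 in the chromosome 7 run and 214 in the chromosome 1 run. With peaks under 500 bp left out and the windows counted anew, the longest run was 3 windows, and with peaks scoring under 100 left out it was 2. With 60 or more peaks required it was 3.

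The windows at the edges of the runs were mostly filled to a middle level. The 37 runs had 69 distinct neighbouring windows, and these held a median of 25 peaks (quartiles 18 and 35). By construction each held fewer than 50, since a neighbour with 50 or more would belong to the run. Of the 69, 57 held 16 to 49 peaks (82.6%), 7 held 5 to 15 and 5 held fewer than 5. Over all windows with a peak on these chromosomes, 27.9% held 16 to 49 peaks and the median was 9. At a distance of 2 and 3 windows from the edge the median was 18 peaks at both distances, with quartiles of 7 and 36.5 at 2 windows and 7 and 32 at 3. These positions, 71 at each distance, include windows without a peak (6 at 2 windows and 7 at 3) and windows that are themselves dense (10 and 8), so they are not set against the median of 9. The borders with fewer than 5 peaks were sharp. The chromosome 1 run from 78 to 81 Mb ended at a window with 4 peaks, after which the window from 82 to 83 Mb was dense again with 52. On chromosome 1 the run from 186 to 188 Mb was followed by a window with 2 peaks. The chromosome 19 window from 35 to 36 Mb (51 peaks) came after one with 2, the chromosome 3 run from 3 to 5 Mb (117 peaks) came after one with 1, and the chromosome 7 window from 67 to 68 Mb (50 peaks) was followed by one with 1.

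**Figure D2:**
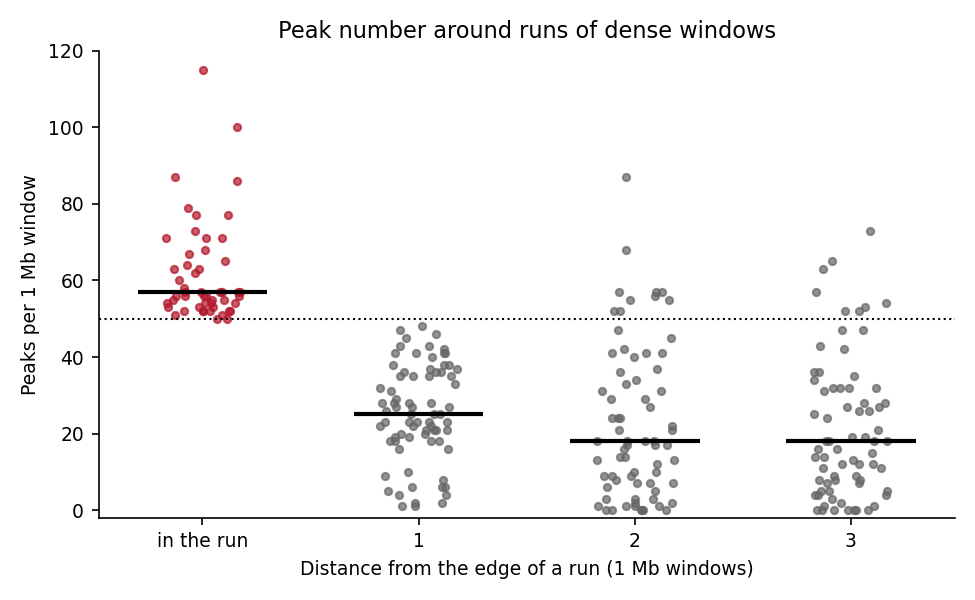
Peaks per 1 Mb window in the dense windows (red) and at 1, 2 and 3 windows from the edge of a run (grey), with the median as a black line and the threshold of 50 as a dotted line. The horizontal axis is distance in windows. A window that lies beside 2 runs appears for each. The median was 57 in the runs, 25 at 1 window and 18 at 2 and 3 windows.

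The rule set the higher peak number of dense windows. That number was made up mostly of more separate regions, and to a smaller extent of more peaks per region. Peaks no more than 1000 bp apart were joined into regions for this comparison. The 51 dense windows held 2049 joined regions, or 40.2 per window, and the sparse windows 5798, or 7.02 per window. Dense windows thus had 6.61 times the peaks, 5.72 times the regions and 1.16 times the peaks per region (1.54 against 1.33). This split follows in large part from the rule, which chose both sets of windows by their number of peaks. With so few peaks per region in each set, windows chosen for more peaks had to hold more regions. The split is therefore a description and not a finding. Within the dense windows the number of regions ran from 30 to 67, and the number of peaks per region from 1.26 to 1.96. Peaks covered 8.89% of the bases of the dense windows and 1.31% of those of the sparse windows.

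Joined regions of 2 or more peaks made up 36.3% of the regions in dense windows (743 of 2049, interval 34.2 to 38.4%) and 24.97% in sparse windows (interval 23.9 to 26.1%). In windows of 16 to 49 peaks the share lay between them, at 30.4% (interval 29.4 to 31.3%). Regions of 3 or more peaks were 10.4% in dense windows (interval 9.11 to 11.8%) and 6.26% in sparse ones (interval 5.65 to 6.92%). These shares follow in part from the rule, since regions called as more peaks raise the count that made a window dense. The gap between peaks inside a region was short in both, with a median of 210 bp in dense windows (interval 197 to 227 bp) and 232 bp in sparse windows (interval 215 to 251 bp). Joining at 500 bp lowered the share of regions of 2 or more in dense windows to 27.5%, and joining at 2000 bp raised it to 42.1%.

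Neighbouring joined regions were a median of 14.0 kb apart in dense windows (interval 13.04 to 14.97 kb) and 65.6 kb apart in sparse windows (interval 62.6 to 69.2 kb), measured from the end of a region to the start of the next on the chromosome. With gaps counted only where both regions lay in the same window, the medians were 13.5 and 53.7 kb. The spacing follows in part from the rule, since more peaks in 1 Mb leave less room between them. A gap of 5 kb or less followed 25.3% of the regions in dense windows (519 of 2049, interval 23.5 to 27.3%) and 9.04% in sparse windows (interval 8.32 to 9.81%). A gap of 20 kb or less followed 62.8% and 22.5%, and one above 100 kb followed 2.29% and 38.2%. The spacing was close in each dense window: the median gap inside a window ran from 6.18 to 20.5 kb, and in 48 of 51 it lay below the lower quartile of the gaps inside sparse windows, 19.4 kb. The closest spacing was on chromosome 8 from 47 to 48 Mb (6.18 kb) and on chromosome 19 from 25 to 26 Mb (6.20 kb), and the widest on chromosome 1 from 82 to 83 Mb (20.5 kb).

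**Figure D3:**
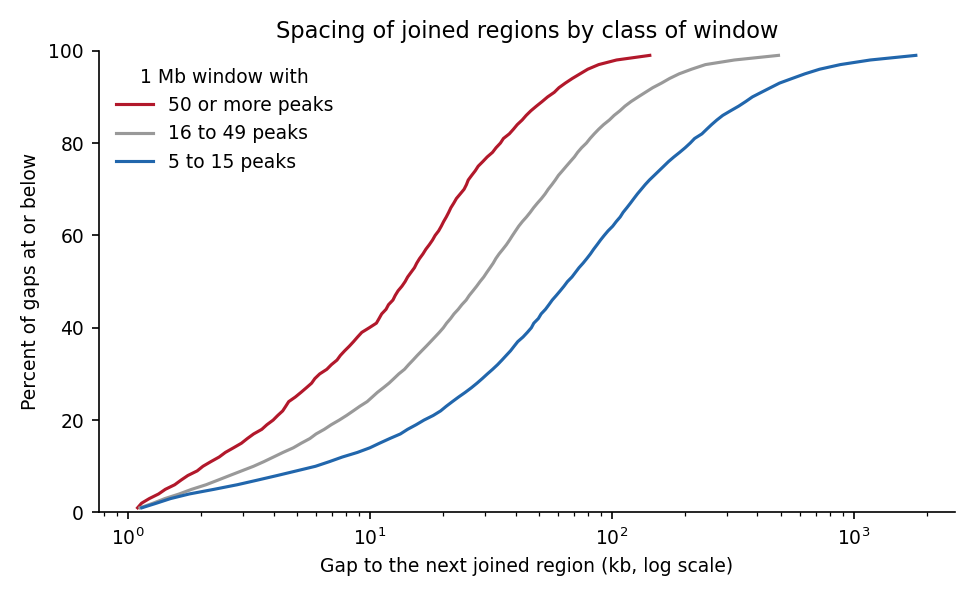
Percent of gaps at or below each length, for gaps from a joined region to the next, by class of window. The horizontal axis is the gap in kb on a log scale. The curve of the dense windows (red) reached its median at 14.0 kb, that of windows with 16 to 49 peaks (grey) at 28.5 kb and that of sparse windows (blue) at 65.6 kb.

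When each dense window was divided into 10 bins of 100 kb, 488 of the 510 bins held a peak. Few empty bins follow in part from the rule, since each of these windows holds 50 or more peaks. Whether the peaks were more or less even than under random placement was not tested. No bin was empty in 33 windows, 1 bin was empty in 14 and 2 were empty in 4. The 2 fullest bins of a window nevertheless held a median of 37.7% of its peaks, with a range from 29.9 to 52.7%. A bin of 20 or more peaks occurred in 5 windows, and the fullest, in the chromosome 7 window from 11 to 12 Mb, held 25. Peak-free gaps above 100 kb inside a window numbered 35 of 1998 and fell in 30 windows. The longest was 323.6 kb on chromosome 20, from 4265488 to 4589087, inside the longest run and in a window that still held 54 peaks. The next were 281.5 kb on chromosome 7, from 117620622 to 117902168, and 200.2 kb on chromosome 7, from 11755479 to 11955668. The last lay in a window with 86 peaks.

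The width of single peaks was close to that of sparse windows. The median width was 1055 bp in dense windows (interval 1024 to 1103 bp) and 1054 bp in sparse windows (interval 1033 to 1072 bp), a difference of 1 bp with an interval of -34.9 to 53.4 bp. The quartiles were 691 and 1838 bp in dense windows and 719 and 1735 bp in sparse windows. Peaks of 4000 bp or more were 3.14% of the members (99 peaks, interval 2.56 to 3.81%) and 3.22% of the peaks in sparse windows (interval 2.84 to 3.64%). Peaks from 2000 to 4000 bp were 18.5% and 15.7% (intervals 17.2 to 19.9% and 14.9 to 16.6%). The median width of a dense window ran from 790.5 bp on chromosome 19 from 50 to 51 Mb to 1453.5 bp on chromosome 7 from 1 to 2 Mb. Within chromosomes, the median width was higher in dense than in sparse windows on 9 of 13 and lower on 4. The differences ran from -89 bp on chromosome 5 to 298.5 bp on chromosome 17, which had 1 dense window. With peaks scoring under 100 left out and the windows counted anew, 9 windows reached 50 peaks, and the difference in median width was 87 bp (interval 0.872 to 223 bp). That choice used the score, and wider peaks had higher scores, so the 87 bp cannot be read apart from the score.

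Joined regions were wider in dense windows, with a median of 1776 bp (interval 1709 to 1883 bp) against 1377 bp (interval 1331 to 1421 bp). This difference too follows in part from the rule, which favours regions of more peaks, and these were wider. Split by their number of peaks, the regions of dense windows had the higher median width in 1 of 3 classes. Regions of 1 peak had a median width of 969 bp in dense windows and 997 bp in sparse windows, with overlapping intervals. Regions of 2 peaks had 2814.5 bp (interval 2665 to 2953 bp) and 2954 bp (interval 2875 to 3049 bp). Those of 3 or more had 5522 bp (interval 5156 to 5938 bp) and 5065 bp (interval 4747 to 5317 bp).

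High scores were more frequent in these dense windows than in sparse windows, while low scores differed little. The median score was 221 in dense windows (interval 204 to 241) and 186 in sparse windows (interval 177 to 196), a difference of 35.1 (interval 15.2 to 56.9). With peaks scoring under 100 left out and the windows counted anew, the difference was 122 (interval 46.8 to 212). Only 9 dense windows with 548 peaks remained. Both sets of windows were then chosen by their number of peaks scoring 100 or more. That choice used the score itself, so the value of 122 is not separate support for the difference of 35.1. The score did not rise step by step with the number of peaks: in windows of 16 to 49 peaks the median was 180.5 (interval 173 to 188), below that of the sparse windows, and 14.7% of the scores were above 1000 (interval 14.1 to 15.3%). The upper quartile was 784 against 604, and the 95th percentile was 2070 (interval 1952 to 2196) against 1616 (interval 1564 to 1684). At the other end the lower quartile was 79.2 against 75.6, and the 5th percentile was 53.1 against 52.8. No peak of the list scored under 50, which limits how far the low scores of the classes can differ. Scores above 1000 were found for 631 members, or 20.01% (interval 18.6 to 21.5%), against 13.4% in sparse windows (interval 12.7 to 14.2%). Scores under 100 made up 32.2% (interval 30.6 to 33.9%) and 34.9% (interval 33.8 to 36.0%).

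**Figure D4:**
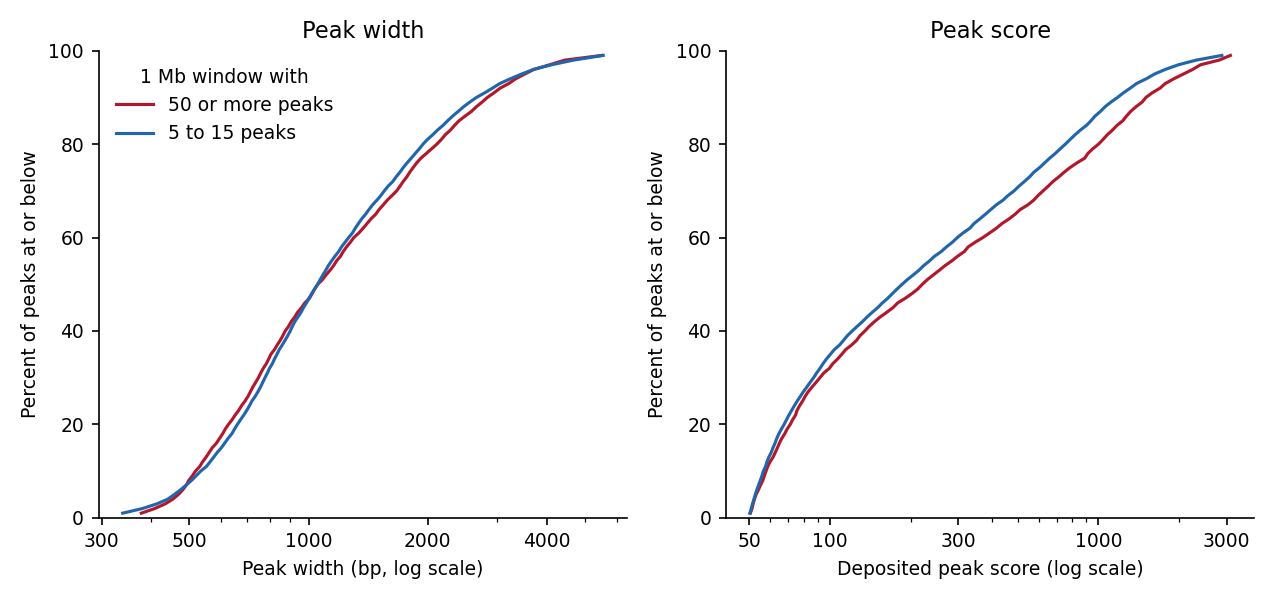
Percent of peaks at or below each width (left, bp, log scale) and each deposited score (right, log scale) in dense windows (red) and sparse windows (blue). The width curves meet near their medians of 1055 and 1054 bp, and the score curves part above the lower quartile, with upper quartiles of 784 and 604.

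The difference in score was seen among peaks of 1000 bp or more. From 1000 to 2000 bp the median score was 406 for 997 members (interval 372 to 439) and 319 for peaks of sparse windows (interval 300 to 337). From 2000 to 4000 bp it was 1255 (interval 1193 to 1315) and 1006 (interval 962 to 1034), and at 4000 bp or more it was 2597 (interval 2273 to 2929) and 2101 (interval 1952 to 2314). The intervals of the last pair overlapped. Among narrower peaks the medians were close, at 85.9 and 83.6 from 500 to 1000 bp and at 59.5 and 58.2 under 500 bp. The lowest score in the list, 50, limits how far such low medians can differ. Taking the best peak of each joined region, the median was 352 in dense windows (interval 299 to 405) and 217 in sparse windows (interval 202 to 234). This difference follows in part from the rule, which favours regions of more peaks, and these had higher best scores. The gap was smaller for regions of 1 peak (138 against 123) and of 2 peaks (694 against 652), with overlapping intervals in each pair. For regions of 3 or more it was 1220 against 939 (intervals 1098 to 1400 and 853 to 1022).

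Single windows varied more in score than the classes differed. The median score of a dense window ran from 82.9 on chromosome 19 from 50 to 51 Mb to 523 on chromosome 7 from 1 to 2 Mb, and these windows held 52 peaks each. In the chromosome 19 window 61.5% of the peaks scored under 100 and 9.62% above 1000, and in the chromosome 7 window the shares were 19.2% and 32.7%. The window median lay above the 186 of the pooled sparse peaks in 35 of 51 dense windows (68.6%) and in 430 of 826 sparse windows (52.1%). The middle window of each class had a median score of 209 and 196. The share of peaks above 1000 passed 13.4% in 45 of 51 dense windows. It did so in 401 of 826 sparse windows, where 216 windows had no such peak, and a share over so few peaks moves in large steps. Within chromosomes, the median score was higher in dense than in sparse windows on 10 of the 13 chromosomes with both. On chromosome 13 it was 111 against 154, on chromosome 14 it was 200.4 against 220.1, and on chromosome 19 it was 154 against 162. The share above 1000 was higher in dense windows on 12 of 13, with chromosome 13 as the exception (13.0% against 15.3%). There a single dense window with 54 peaks stood for the chromosome. Chromosomes 9, 14 and 17, which are among the 12, likewise had 1 dense window each, with 57, 56 and 52 peaks.

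Among the 51 dense windows a higher peak number went with more covered bases but not with a higher score. Across windows the Spearman rho of peak number was 0.72 with the covered share (Pearson r = 0.90) and 0.76 with the number of joined regions (r = 0.87). It was -0.56 with the median gap (r = -0.60) and 0.48 with peaks per region (r = 0.54). It was 0.00 with the median width (r = 0.09) and 0.09 with the median score (r = 0.11). Without the 2 fullest windows these values of rho were 0.69, 0.73, -0.52, 0.43, -0.03 and 0.05. The windows share a library and a peak calling, the first 4 measures are tied to the peak number by construction, and no p-value is given. The covered share ran from 5.77% on chromosome 19 from 50 to 51 Mb to 18.6% on chromosome 7 from 10 to 11 Mb.

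**Figure D5:**
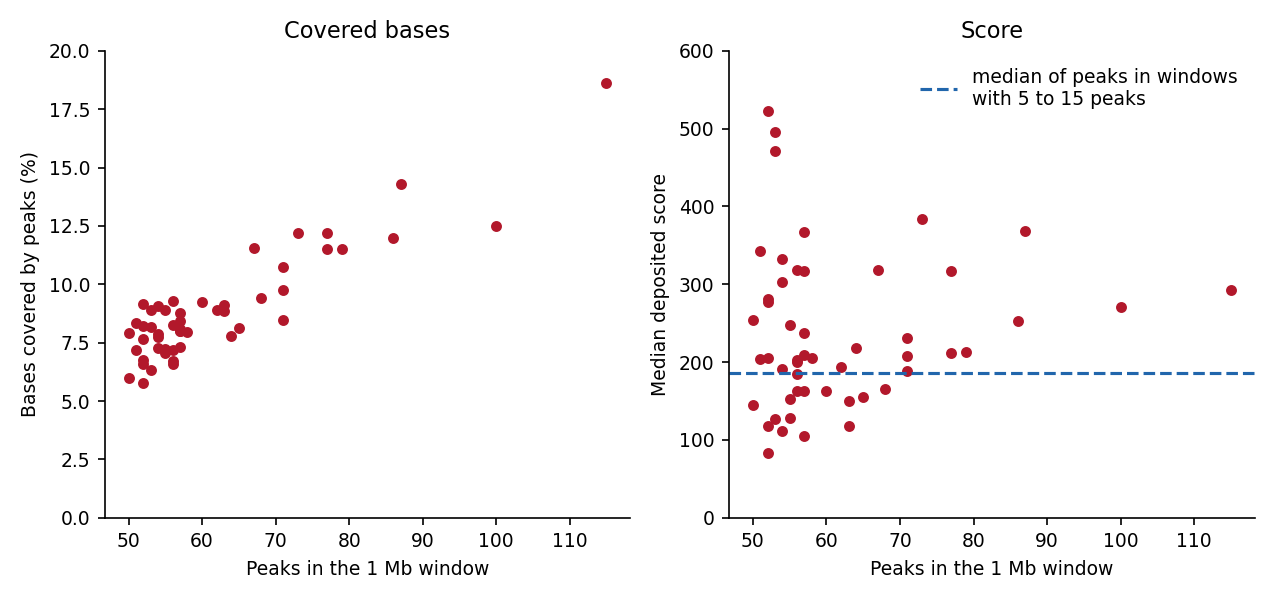
Each point is 1 of the 51 dense windows, with its number of peaks on the horizontal axis and the percent of its bases covered by peaks (left) or its median deposited score (right) on the vertical axis. The dashed line is the median score of 186 in sparse windows. Covered bases rose with peak number, while median scores from 82.9 to 523 were found among windows with 52 peaks.

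The widest single member was 11714 bp on chromosome 1 at 135025157 to 135036870, in a window with 52 peaks. Chromosome 3 held the next widest, a peak of 11146 bp from 4506638 to 4517783 and one of 9586 bp from 9455508 to 9465093. The fourth was 9439 bp wide and lay between 10135454 and 10144892 of chromosome 19. The fifth was 9407 bp wide and lay between 180606981 and 180616387 of chromosome 2. Each of these 5 had a score of 3100. That score was shared by 38 members (1.21%, interval 0.854 to 1.65%), which lay in 27 of the 51 windows, and by 0.686% of the peaks in sparse windows (interval 0.515 to 0.897%). It was also the score of 1.43% of the peaks in windows of 1 to 4 peaks (interval 0.834 to 2.28%) and of 1.26% in the dense windows of chromosomes 10 and 12 (interval 0.689 to 2.10%). The 5 highest scores belonged to narrower peaks of 1783 to 4579 bp. Chromosome 3 held the peaks from 11950826 to 11954550 (score 3208) and from 11258934 to 11262333 (3157), which lay in 1 window. Chromosome 7 held those from 67646795 to 67648577 (3183), from 11360791 to 11365369 (3176) and from 1330004 to 1332663 (3157). Across the whole list 230 peaks scored exactly 3100 and 39 scored higher, so an order among scores this high may not rank the strength of the mark.

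The widest joined region that started in a dense window was 16288 bp on chromosome 7 at 11043309 to 11059596. It held 9 peaks, of which the widest was 3421 bp and the best score 1689. The other 4 of the 5 widest each had a peak scoring 3100. On chromosome 7 these were a region of 7 peaks and 16094 bp from 117138953 to 117155046 and a region of 6 peaks and 15678 bp from 114225358 to 114241035. On chromosome 2 a region of 4 peaks spanned 15929 bp from 180603005 to 180618933. On chromosome 1 a region of 3 peaks spanned 14945 bp from 135023754 to 135038698. The regions on chromosomes 2 and 1 were built around the single peaks of 9407 and 11714 bp named above. The regions with the most peaks were the first of these, a region of 9 peaks on chromosome 7 at 11062019 to 11076906 with a best score of 2337, and one of 8 peaks on chromosome 19 at 52135511 to 52150190 with a score of 3100.

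The 18 dense windows of chromosomes 10 and 12, which the set leaves out, held 1113 peaks and were crowded to the same level, with 61.8 peaks per window in each set and 42.4 joined regions per window against 40.2. Their median peak width was 1034 bp (interval 991 to 1108 bp) and their regions were 12.6 kb apart (interval 11.2 to 14.4 kb). Regions of 2 or more peaks were 30.6% there (interval 27.4 to 34.0%), against 36.3% in the member windows. Regions of 3 or more peaks were close, at 10.99% (interval 8.87 to 13.4%) against 10.4%. The median score was 184 (interval 151 to 207), close to the 186 of the sparse windows, so the higher median of the members was not seen there. Its interval overlapped narrowly with that of the members (204 to 241). Scores above 1000 made up 16.5% (interval 14.4 to 18.9%), against 20.01% in the members and 13.4% in sparse windows. The 95th percentile of the score was 2037 (interval 1789 to 2323), against 2070 and 1616. High scores were thus more frequent there than in sparse windows as well. Scores under 100 made up 36.7% (interval 33.9 to 39.7%), against 32.2% and 34.9%.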

How the data were processed

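The labels give 1 H3K4me3 library and 1 input library of C6 cells, sequenced on SOLiD. Per the file header, peaks of the first were called with MACS against the second, and per the submitters' processing notes the build is rn4. Aligner, MACS version and settings are not given in the labels or the header. Read numbers are not given either, so depth is unknown. The deposited score of each peak was used as it stands.

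The set of windows, the measures and the alternatives were chosen with earlier results of these data known. Peaks were joined along whole chromosomes at gaps of 1000 bp or less, and a region belongs to the window of its start. The 3 peaks and 3 regions that cross the end of a dense window were kept whole. Named are the 10 fullest windows, runs of 3 or more, windows beside the threshold, the 5 widest and 5 highest-scoring peaks, the 5 widest regions, the 3 with most peaks and the 3 longest gaps, with ties broken by width or covered length. Other windows and runs named for an extreme or a sharp border were picked after their values were seen. Intervals of differences between medians combine the intervals of the medians. Python 3.11.15, NumPy 2.4.6, pandas 2.3.3, SciPy 1.17.1 and matplotlib 3.10.9 were used. Counting and joining were tested on simulated peaks.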

Additional observations from a re-analysis of the deposited data

How the results depend on the processing

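Values counted as moved when they left the 95% interval of the reported value, or, for counts and run length, changed by over 1.5 times. This held for 27 of 85 alternatives, and 58 stayed within these bounds. Gaps here are those between regions of the same window, with a reported median of 13458.5 bp (interval 12690 to 14357 bp). At 40 or more peaks there were 97 windows with 5153 peaks and a median gap between regions of 14610 bp. At 60 or more there were 19 windows with 1419 peaks, a longest run of 3, a gap of 11615.5 bp and 39.6% of regions with 2 or more peaks. Keeping only scores of 100 or more left 9 windows, 548 peaks and a run of 2, with a median width of 1522 bp, a median score of 544 and a region width of 2419 bp. The differences from sparse windows were then 87 bp and a score of 122, with a choice of windows that used the score itself. Keeping only widths of 500 bp or more gave a run of 3, a width of 1158 bp, a score of 267, a region width of 1926.5 bp and 26.7% of scores under 100. Joining at 500 bp gave 27.5% of regions with 2 or more peaks, a gap of 11193 bp and a width of 1525 bp, and joining at 2000 bp gave 42.1%, 15549.5 bp and 2042 bp. The share under 100 was not run for scores of 100 or more, where it is 0 by construction. Leaving out chromosome 1 or 7, or taking sparse windows only from chromosomes with a dense one, were added after the data were seen. The score difference was then 29.7, 28.9 and 36.1, and the width difference -1.5, 0 and 5 bp. No paired analysis was possible because the list comes from a single library.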

Other observations

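The joined regions with the most peaks in the set, 9 each, were neighbours on chromosome 7, 2.42 kb apart, a fact noticed after the regions had been listed. From 11043309 to 11076906, a stretch of 33.6 kb, they held 18 peaks that covered 78.8% of the bases. The peaks were 442 to 3421 bp wide, with a median of 1100 bp. Their scores ran from 54.9 to 2337 with a median of 266, and 2 were above 1000 and 2 under 100. The same 1 Mb window held a peak-free gap of 200.2 kb.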
